A study of Homo sapiens with 9 samples.

Results

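The genes described here are 35 genes of DNA replication and of the G1/S transition of the cell cycle, among 60880 gene rows counted in RNA from LNCaP cells. They were chosen by name, as a fixed list of replication genes, by a rule that does not use their values. Earlier results of these data were known when the list was chosen. All 35 were found in the count tables and all 35 passed the filter on low counts. LNCaP is an established human prostate cancer cell line that responds to androgen. The 9 libraries form 3 groups of 3: control cells (NT in the titles), cells with knockdown of UGT2B28, an enzyme of a family that attaches glucuronic acid to steroids, and rescue cells that overexpress UGT2B28 in the knockdown background. All were grown in RPMI medium with fetal bovine serum and carry a time label of 24 h. Puromycin (3 µg/mL) was the selection for knockdown and G418 (1 mg/mL) that for rescue, and no antibiotic is named for control cells. The titles give the knockdown and rescue libraries the same knockdown name, so 1 knockdown line stands behind 6 libraries, and the antibiotic and the construct cannot be told apart between the groups. The labels do not say that replicates were separate cultures, so p-values rest on the library-to-library spread alone, and that may be technical.

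As background, a cell commits to DNA synthesis when D-type and E-type cyclins with their kinases inactivate the retinoblastoma protein and free E2F transcription factors, which switch on replication genes. Origins are licensed in G1 when the origin recognition complex, CDC6 and CDT1 load the MCM helicase, and they fire in S phase when CDC45 and the GINS complex join that helicase. Polymerases, the sliding clamp PCNA and its loader RFC then copy the strands, ribonucleotide reductase and thymidylate enzymes supply the precursors, and chromatin assembly factor places new histones. In bulk RNA, a larger share of cells in S phase and more RNA per cell cannot be told apart.

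Gene counts summed to 20300744 to 26459528 per library, and 48.8% to 50.7% of the reads in each table lay in no gene. UGT2B28 had 25, 4 and 10 counts in control, 17, 8 and 1 in knockdown, and 1124, 1554 and 1857 in rescue. A lower level in knockdown than in control was therefore not detectable (log2 fold change −0.60, SE 0.62, adjusted p = 0.52), and the groups are named here by their labels. Markers of luminal prostate cells, the labelled type, all had counts (10 of 10), and their summed level was 3807 to 4102 CPM (counts scaled to a common library depth) in control, 8189 to 8692 in knockdown cells and 8220 to 9161 in rescue. Basal markers summed to 58.6 to 60.3, 76.4 to 91.4 and 81.4 to 90.0 CPM in the same order. All 8 had counts, but only 4 of them passed the filter on low counts. Of these 4, 3 rose and 1 fell in knockdown against control at an adjusted p under 0.05. In rescue against control, 3 rose and 0 fell. For fibroblast, endothelial and immune cells, PTPRC and CD3E of 9 markers had no count, and the sums were 67.8 to 77.0, 52.1 to 61.3 and 66.9 to 78.6 CPM. KLK2 and KLK3 were at 125 ± 12.4 and 1428 ± 141 CPM in control and 1698 ± 82.9 and 3750 ± 151 in knockdown cells. They carried most of the luminal sum in knockdown cells but not in control. In knockdown against control, ACP3 fell by 1.68 on the log2 scale and KRT8 gave 0.07 (adjusted p = 0.52). ENO2, an enolase also used as a neuroendocrine marker, had 1096 to 1207 CPM in control, 686 to 815 in knockdown cells and 1149 to 1182 in rescue. These 5 markers were chosen after their values were seen. The part of the marker differences in the results below was not tested.

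The replication genes did not move as a block: in each comparison a minority or a small majority passed the test, in both directions, and nearly all changes were under 2-fold. In knockdown against control, 9 of the 35 genes rose, 3 fell and 23 did not pass, which is 34.3% called beside a background of 32.1% of all 18389 genes tested. The 9 that rose were CCND1, CCND3, E2F1, MCM2, CDC45, PCNA, RFC3, FEN1 and TK1, and the 3 that fell were RRM2, LIG1 and CHAF1B. In rescue against knockdown, 4 rose (CCND3, ORC6, RFC3 and RRM2), 2 fell (CDT1 and POLE) and 29 did not pass, or 17.1% called against a background of 10.1%. In rescue against control, 15 rose, 5 fell and 15 did not pass, or 57.1% called against a background of 37.8%; without rescue replicate 1, the 15 became 9. In rescue against knockdown, the 4 that rose became 2 without replicates 1 or 2 of knockdown or of rescue. The 2 that fell there became 1 without control replicate 3, without replicates 1 or 3 of knockdown, or without any 1 of the rescue libraries. A gene was called when the edgeR quasi-likelihood test, adjusted by the Benjamini-Hochberg method over all genes tested, gave an adjusted p under 0.05.

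The median log2 fold change of the 35 genes was 0.16 in knockdown against control, 0.04 in rescue against knockdown and 0.24 in rescue against control, beside medians over all genes tested of 0.01, −0.0048 and −0.0025. Sizes without regard to sign had a median of 0.23, 0.14 and 0.36 among the 35 and of 0.29, 0.19 and 0.33 among all genes tested. RFC3 in rescue against control was the only one of the 35 to pass a 2-fold change in any of the 3 comparisons. These comparisons share libraries: knockdown enters the first and the second, control the first and the third, and rescue the second and the third. By direction, the background of calls was 16.5% higher and 15.6% lower for knockdown against control, 5.2% higher and 4.88% lower for rescue against knockdown, and 19% higher and 18.8% lower for rescue against control. Libraries of the 2 groups did not overlap for 19 of the 35 genes in knockdown against control (42.5% of all genes tested), 11 in rescue against knockdown (27.5%) and 23 in rescue against control (48.1%). Genes both called and without overlap numbered 11, 6 and 19 in that order, beside 30.5%, 9.85% and 36.2% of all genes tested.

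**Figure D1:**
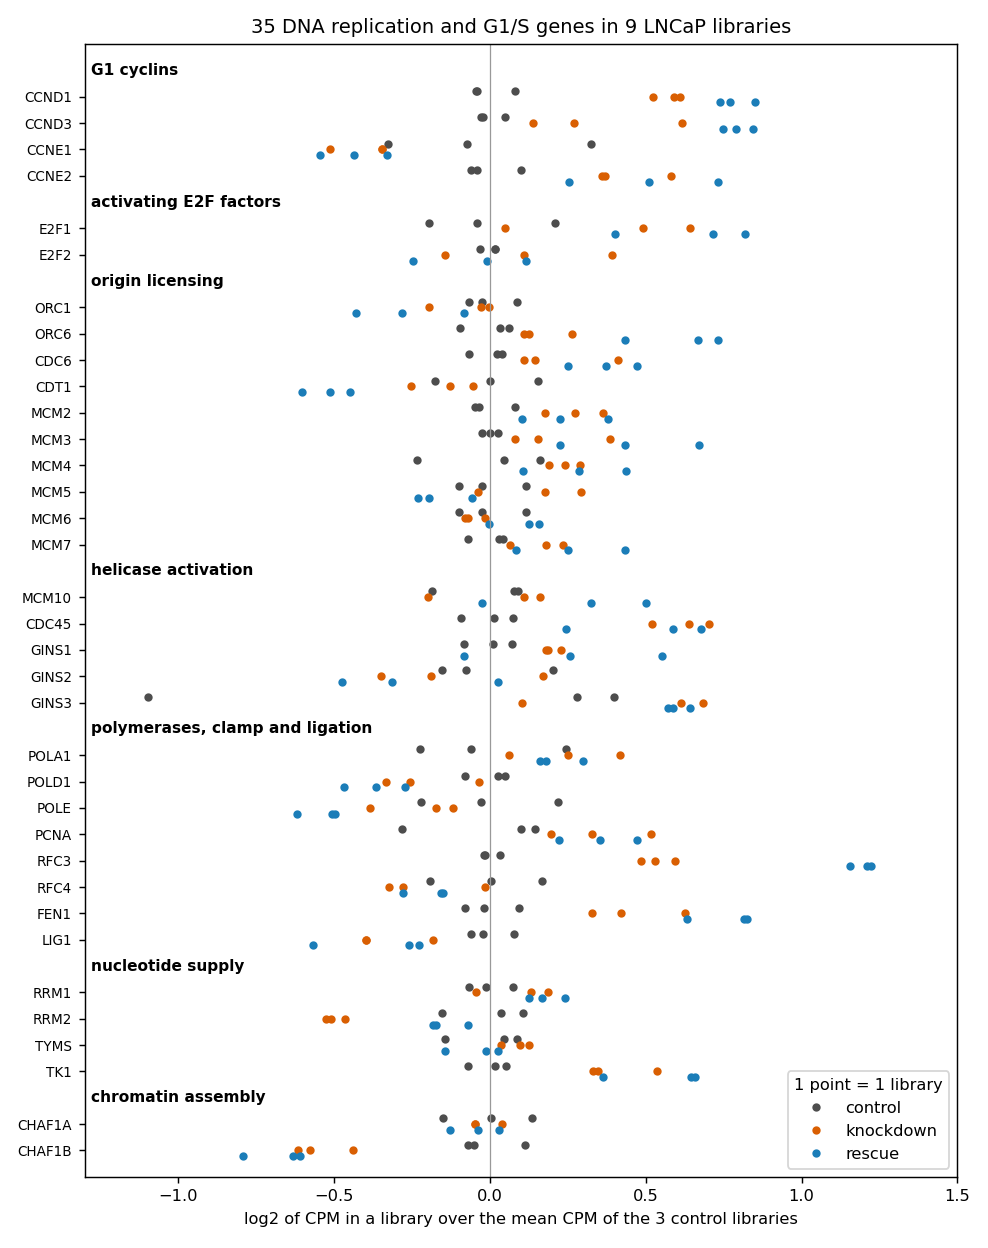
Each point is 1 of 9 libraries and shows the log2 of its CPM over the mean of the 3 control libraries, for the 35 genes ordered by role; control is grey, knockdown orange and rescue blue. RFC3 in rescue lies farthest to the right, CDT1, POLE and CHAF1B in rescue lie left of every control library, and for E2F2 and CHAF1A all 3 groups overlap.

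Promoters of replication genes are known to carry letters bound by E2F factors, so the 250 bases before the start of each gene were searched in RefSeq promoters (GRCh38.p14). Of the 35 genes, 31 matched the table and MCM4, MCM5, CCNE2 and CCND1 did not. The letters TTTNNCGC, which cover the E2F-type sites TTTCCCGC, TTTGGCGC, TTTCGCGC and TTTGCCGC, were found on either strand in 14 of the 31 promoters (45.2%) and in 5.93% of all 27305 promoters of that length. CHR letters, TTTGAA or TTTAAA, known from genes of mitosis, were in 4 of 31 (12.9%) beside 22.1% of all promoters, and CCAAT was in 17 of 31 (54.8%) beside 33.0%. Among G2/M genes the order was the reverse, with the E2F letters in 2 of 24 promoters (8.33%) and CHR letters in 16 of 24 (66.7%).

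The 4 promoters below are examples, from genes called higher and genes called lower and with and without a match, chosen after their values were seen and among windows that overlap little with exons of other transcripts; letters in capitals match TTTNNCGC on either strand, and overlapping matches run together. E2F1 encodes one of the factors and was higher in both groups than in control, TK1 was also higher in both, POLE was lower in rescue, and CHAF1B had the lowest fold change against control.
E2F1 promoter, chr20:33686386-33686635, minus strand: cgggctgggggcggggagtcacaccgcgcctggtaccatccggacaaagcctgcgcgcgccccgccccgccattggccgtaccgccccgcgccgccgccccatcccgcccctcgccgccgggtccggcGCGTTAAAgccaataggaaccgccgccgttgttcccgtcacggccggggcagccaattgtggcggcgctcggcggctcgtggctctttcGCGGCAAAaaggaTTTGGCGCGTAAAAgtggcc
POLE promoter, chr12:132687343-132687592, minus strand: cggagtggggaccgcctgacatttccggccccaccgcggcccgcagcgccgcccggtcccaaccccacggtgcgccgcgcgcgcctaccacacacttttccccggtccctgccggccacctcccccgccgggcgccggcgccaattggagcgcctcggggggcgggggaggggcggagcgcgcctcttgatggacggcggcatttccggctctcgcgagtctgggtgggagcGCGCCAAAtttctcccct
TK1 promoter, chr17:78187205-78187454, minus strand: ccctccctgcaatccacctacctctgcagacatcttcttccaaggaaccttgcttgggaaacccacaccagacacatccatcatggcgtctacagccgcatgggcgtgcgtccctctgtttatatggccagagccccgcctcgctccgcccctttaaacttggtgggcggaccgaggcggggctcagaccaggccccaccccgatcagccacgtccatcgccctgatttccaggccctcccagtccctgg
CHAF1B promoter, chr21:36385142-36385391, plus strand: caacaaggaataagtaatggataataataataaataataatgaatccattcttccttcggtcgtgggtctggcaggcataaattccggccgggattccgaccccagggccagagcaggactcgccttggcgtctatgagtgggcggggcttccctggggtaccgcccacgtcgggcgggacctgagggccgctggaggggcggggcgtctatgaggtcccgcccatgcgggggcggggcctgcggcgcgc

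E2F1 held 4 matches, the first at position -122 from the gene's start, and POLE held 1, at -18, while TK1 and CHAF1B held none. Of genes whose promoters are not printed, RFC3 held 1, CDT1 2 and RRM2 none. The calls were in both directions with and without the letters in the comparisons against control. Of the 14 genes with TTTNNCGC, 6 rose and 3 fell in rescue against control, and of the 17 without it, 6 rose and 2 fell. Of all genes tested, 19% were called higher and 18.8% lower in rescue against control. The medians of the log2 fold change in that comparison were 0.15 with the letters and 0.24 without, and in knockdown against control they were 0.15 and 0.10. In rescue against knockdown, 2 rose and 2 fell of the genes with the letters (median −0.01) and 2 rose of those without (median 0.06). Of all genes tested, 5.2% were called higher and 4.88% lower there. The 2 genes that fell were CDT1 and POLE, and the POLE call held in only 3 of the 9 fits with a library left out. The differences between genes with and without the letters were not tested. Of E2F-type sites only the letters TTTNNCGC were searched. The windows of CDC6 and CDC45, counted as without them, hold the near form TTTGGCGGG. These are descriptions of letters in a window and not of binding.

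The G1 cyclins are the entry point of the programme, and the D-type cyclins rose. CCND1, cyclin D1, had 279, 256 and 255 CPM in the control libraries, 402, 396 and 379 in knockdown cells and 475, 440 and 449 in rescue. The groups did not overlap in any comparison, and the level stepped up from control to knockdown to rescue. CCND1 rose by a log2 fold change of 0.58 in knockdown against control (SE 0.07, adjusted p = 2.2e-07) and 0.79 in rescue against control (SE 0.07, adjusted p = 4.6e-10). Rescue against knockdown gave 0.21 (SE 0.07, adjusted p = 0.054), and this value passed under several alternatives, at 0.015 with DESeq2 and 0.036 with limma voom. LTO1, which lies on the opposite strand and shares 497 exon bases with CCND1, was higher by 0.42 and 0.65 in the same 2 comparisons against control; the strand setting of the counting is not given, so reads in the shared stretch cannot be told apart.

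CCND3, cyclin D3, had 14.5, 14.5 and 15.3 CPM in control, 16.2, 17.8 and 22.6 in knockdown cells and 24.8, 26.5 and 25.5 in rescue. It was called in all 3 comparisons, with log2 fold changes of 0.35 (SE 0.12, adjusted p = 0.029) in knockdown against control, 0.44 (SE 0.12, adjusted p = 0.017) in rescue against knockdown and 0.80 (SE 0.12, adjusted p = 6.7e-06) in rescue against control. Per kilobase of exon, cyclin D1 stood far above cyclin D3, at 59.8 ± 3.03 against 3.74 ± 0.114 RPKM in control (SD, n = 3). The first call was lost without control replicate 1 (adjusted p = 0.062), control replicate 2 (0.067) or knockdown replicate 3 (0.23), and with limma voom (0.0502), library size alone (0.058) or only the 2 groups compared (0.053). The second was lost without replicates 1 (0.12) or 2 (0.077) of knockdown and without replicates 2 (0.073) or 3 (0.052) of rescue.

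The E-type cyclins, which bind CDK2 at the start of S phase, had low levels and differed in sign. CCNE2 had 5.69, 6.36 and 5.77 CPM in control, 7.66, 7.61 and 8.88 in knockdown cells and 9.85, 8.47 and 7.08 in rescue, with control below both other groups. It rose in rescue against control by 0.51 (SE 0.18, adjusted p = 0.024) and did not pass in knockdown against control (0.44, SE 0.18, adjusted p = 0.059). CCNE1 had 6.78 ± 1.57, 5.14 ± 0.338 and 5.02 ± 0.374 CPM and passed in no comparison, with −0.40 (SE 0.20, adjusted p = 0.14) in knockdown against control and −0.43 (SE 0.20, adjusted p = 0.091) in rescue against control, which passed without control replicate 3 (0.043). The CCNE2 call was lost without control replicate 1 (adjusted p = 0.064), control replicate 3 (0.065), rescue replicate 1 (0.14) or rescue replicate 2 (0.059). INTS8, on the opposite strand, covers 1629 exon bases of CCNE2 and gave −0.17 in rescue against control (adjusted p = 0.12).

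Of the activating E2F factors, E2F1 rose and E2F2 did not pass. E2F1, which drives its own promoter and those of other replication genes, had 22.5, 17.03 and 18.9 CPM in control, 27.4, 20.1 and 30.4 in knockdown cells and 34.4, 32.0 and 25.7 in rescue. Knockdown replicate 2 lay inside the control range, while all 3 rescue libraries lay above every control library. The log2 fold change was 0.65 in rescue against control (SE 0.14, adjusted p = 0.00077) and 0.41 in knockdown against control (SE 0.14, adjusted p = 0.030). The latter call was lost without control replicate 2 (adjusted p = 0.12), control replicate 3 (0.091), knockdown replicate 1 (0.096) or knockdown replicate 3 (0.17), and with limma voom (0.053) or library size alone (0.065). E2F2, at 3.995 ± 0.0774 CPM in control, gave 0.13 (SE 0.23, adjusted p = 0.70) and −0.04 (SE 0.23, adjusted p = 0.91) against control.

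**Figure D2:**
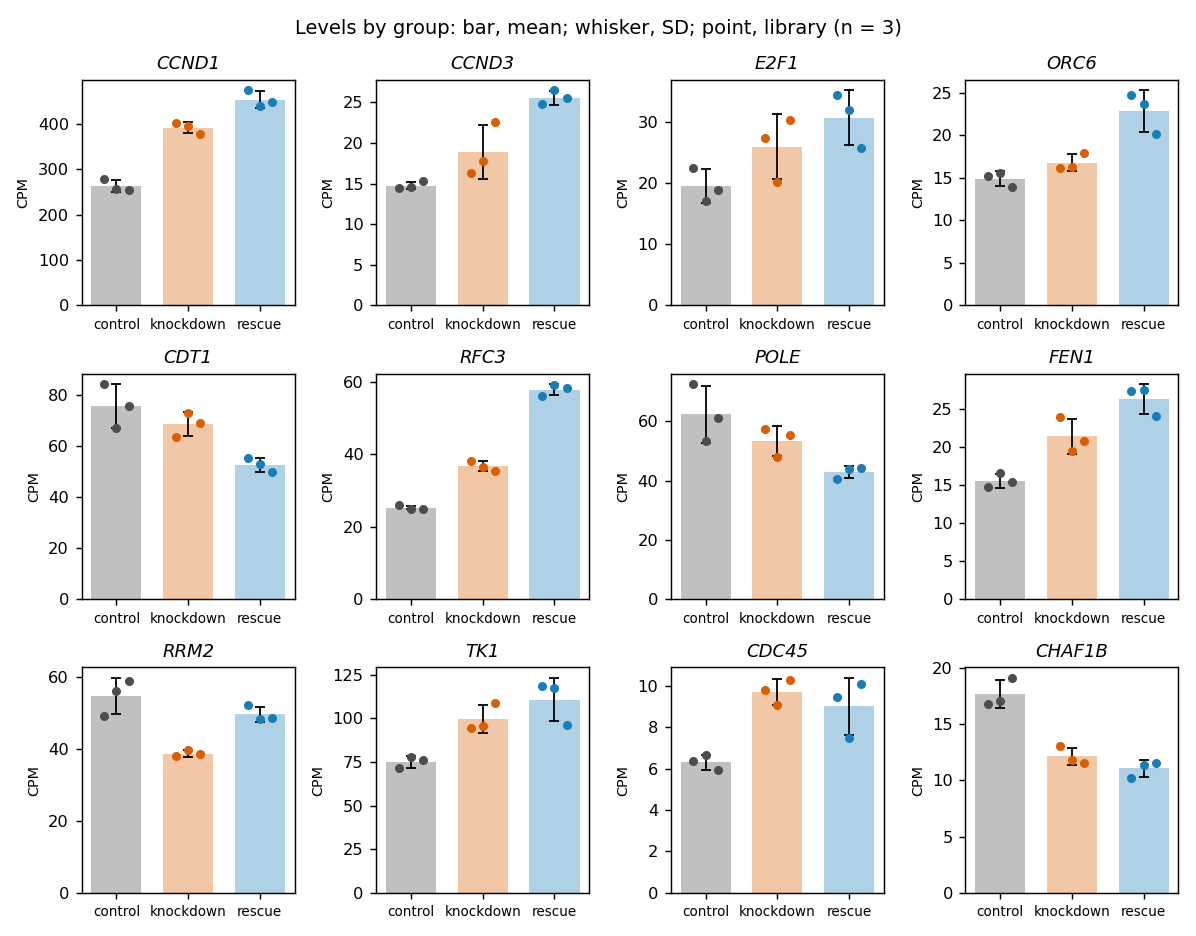
CPM of 12 of the genes by group; bars start at 0 and show the mean of 3 libraries, whiskers the SD and points the libraries. RFC3 steps up from 25.3 in control to 36.7 in knockdown cells and 57.9 in rescue, RRM2 dips in knockdown, and CDT1 and POLE are lowest in rescue.

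Among 10 genes of origin licensing, 1 was called in knockdown against control (10% beside 32.1% of all genes tested), 2 in rescue against knockdown (20% beside 10.1%) and 7 in rescue against control (70% beside 37.8%). ORC6, the smallest subunit of the origin recognition complex, had 15.2, 15.5 and 13.9 CPM in control, 16.1, 16.3 and 17.9 in knockdown cells and 24.8, 23.7 and 20.1 in rescue. All rescue libraries lay above all others, and ORC6 rose by 0.45 against knockdown (SE 0.12, adjusted p = 0.015) and 0.61 against control (SE 0.12, adjusted p = 0.00016). The former call was lost without replicates 1 (adjusted p = 0.060) or 2 (0.055) of knockdown and without replicates 1 (0.091) or 2 (0.068) of rescue. ORC1, which binds ATP in the same complex, did not pass, with −0.26 in rescue against control (SE 0.12, adjusted p = 0.081).

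CDT1, which brings the MCM helicase to origins, went the other way. It had 84.1, 66.9 and 75.6 CPM in control, 63.4, 72.8 and 69.1 in knockdown cells and 55.3, 52.9 and 49.8 in rescue, so that rescue lay below both other groups, which overlapped. CDT1 fell by 0.38 on the log2 scale in rescue against knockdown (SE 0.09, adjusted p = 0.0055) and by 0.52 in rescue against control (SE 0.09, adjusted p = 3e-05), and both calls held without each of the 9 libraries. CDC6, its partner in helicase loading, had 14.8, 15.7 and 15.9 CPM in control, 17.1, 20.6 and 16.7 in knockdown cells and 21.5, 20.02 and 18.4 in rescue. Control lay below both other groups; CDC6 rose in rescue against control (log2 fold change 0.37, SE 0.12, adjusted p = 0.018) and gave 0.23 in knockdown against control (SE 0.12, adjusted p = 0.16). The CDC6 call was lost without control replicate 1 (adjusted p = 0.052) or rescue replicate 1 (0.086).

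The MCM2-7 helicase, with 6 subunits, unwinds DNA ahead of the fork. In knockdown against control 1 of the 6 rose, beside 16.5% of all genes tested called higher, so this count lay near the background. In rescue against control 4 of the 6 rose, beside 19% of all genes tested called higher. In rescue against knockdown the adjusted p ran from 0.059 (MCM5) to 0.885 (MCM2). MCM2 had 49.5, 50.0 and 54.2 CPM in control, 57.9, 61.9 and 65.9 in knockdown cells and 66.7, 59.9 and 55.1 in rescue. It rose by 0.27 in knockdown against control (SE 0.09, adjusted p = 0.019) and 0.24 in rescue against control (SE 0.09, adjusted p = 0.034), with no overlap with control in either. MCM3 had 22.2, 21.8 and 22.6 CPM in control, 24.7, 23.5 and 28.99 in knockdown cells and 35.3, 29.97 and 25.96 in rescue. MCM7 had 83.8, 90.5 and 89.7 CPM in control, 99.8, 92.1 and 103 in knockdown cells and 119, 105 and 93.2 in rescue. For both, control lay below the other groups, which overlapped, while for MCM4 control and rescue overlapped. MCM3 rose in rescue against control by 0.45 (SE 0.12, adjusted p = 0.0028), MCM4 by 0.28 (SE 0.10, adjusted p = 0.027) and MCM7 by 0.26 (SE 0.08, adjusted p = 0.014). MCM5 and MCM6 were not called in any comparison; MCM5 gave −0.31 in rescue against knockdown (SE 0.11, adjusted p = 0.059), and the 3 rescue libraries, at 28.2 to 31.8 CPM, lay below the 3 knockdown libraries, at 32.2 to 40.5. Per kilobase of exon the 6 subunits, which assemble in equal numbers, ranged in control from 6.91 ± 0.126 RPKM for MCM3 to 24.1 ± 1.01 for MCM7.

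The MCM calls rested on few libraries apart from MCM3, whose call held without each of the 9. In rescue against control, MCM7 lost its call without rescue replicate 1 (adjusted p = 0.15), and MCM4 without control replicate 2 (0.20), rescue replicate 1 (0.17) or rescue replicate 3 (0.062). MCM2 lost it there without control replicate 1 (0.079), control replicate 2 (0.092), rescue replicate 1 (0.21) or rescue replicate 2 (0.069), and in knockdown against control without control replicate 1 (0.052), control replicate 2 (0.060) or knockdown replicate 3 (0.087). An antisense gene, AC023593.1, covers 1113 exon bases of MCM2 and gave −0.03 in both comparisons against control (adjusted p = 0.87 in each), and TPRA1, with 45 shared bases on the opposite strand, gave 0.49 and 0.25.

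Of 5 genes of helicase activation, CDC45 was the only one called in any comparison. This is 20% called in each comparison against control, beside 32.1% of all genes tested in knockdown and 37.8% in rescue. CDC45, which joins the MCM helicase as origins fire, had 6.36, 6.64 and 5.90 CPM in control, 9.80, 9.04 and 10.3 in knockdown cells and 9.46, 7.46 and 10.1 in rescue. Every knockdown and rescue library lay above every control library, and the log2 fold changes were 0.62 in knockdown (SE 0.17, adjusted p = 0.0051) and 0.51 in rescue (SE 0.17, adjusted p = 0.017), each against control. The knockdown call held without each of the 9 libraries, whereas the rescue call was lost without control replicate 3 (adjusted p = 0.061), rescue replicate 1 (0.056) or rescue replicate 3 (0.088). MCM10, GINS1, GINS2 and GINS3, which act at the same step, were called in no comparison, with values in rescue against control from −0.24 for GINS2 to 0.61 for GINS3 (SE 0.27, adjusted p = 0.077). GINS3 had 1.98 CPM in control replicate 1 against 5.15 and 5.59 in the other control libraries, and it passed in rescue against control without control replicate 2 (adjusted p = 0.043) or control replicate 3 (0.023).

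Among the 8 genes of polymerases, clamp and ligation the calls against control were in both directions. In knockdown, 3 rose and 1 fell (50% called beside 32.1% of all genes tested). In rescue, 3 rose and 3 fell (75% beside 37.8%). RFC3, a subunit of the clamp loader, had 25.9, 24.96 and 24.98 CPM in control, 38.2, 36.5 and 35.3 in knockdown cells and 56.2, 59.0 and 58.4 in rescue. The 3 groups lay wide apart relative to their spread. RFC3 rose by 0.54 in knockdown against control (SE 0.09, adjusted p = 3.7e-05), 0.66 in rescue against knockdown (SE 0.09, adjusted p = 7.8e-06) and 1.195 in rescue against control (SE 0.09, adjusted p = 1.6e-11), a fold of 2.29. Each of these calls held without each of the 9 libraries, and no other of the 35 passed in rescue against knockdown when a change above 1.2-fold was required by the test. RFC4, which sits in the same loader, was called in no comparison and gave −0.19 in rescue against control (SE 0.11, adjusted p = 0.18).

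FEN1, the nuclease that trims Okazaki fragments, rose against control in both groups, while LIG1, the ligase that seals them, fell in both. FEN1 had 14.7, 16.6 and 15.4 CPM in control, 24.0, 19.5 and 20.8 in knockdown cells and 27.4, 27.6 and 24.1 in rescue, with log2 fold changes of 0.47 (SE 0.12, adjusted p = 0.0028) and 0.76 (SE 0.12, adjusted p = 5.8e-06) against control. Its exons share 49 bases with FADS2 on the same strand, a far more abundant gene that was higher by 1.31 and 1.97, and the part of shared reads was not tested. LIG1 had 45.0, 49.6 and 46.2 CPM in control, 35.7, 35.6 and 41.4 in knockdown cells and 40.1, 31.7 and 39.2 in rescue. It fell by 0.32 in knockdown (SE 0.10, adjusted p = 0.015) and by 0.34 in rescue (SE 0.10, adjusted p = 0.0082). The knockdown call of LIG1 was lost without control replicate 2 (adjusted p = 0.067), knockdown replicate 1 (0.067) or knockdown replicate 2 (0.069), and the rescue call without rescue replicate 2 (0.096).

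The catalytic subunits of the leading-strand and lagging-strand polymerases were lower in rescue than in control. POLE, of polymerase epsilon, had 72.6, 53.5 and 61.2 CPM in control, 57.5, 47.8 and 55.4 in knockdown cells and 40.7, 44.0 and 44.2 in rescue, all rescue libraries lying below all others. It fell by 0.54 in rescue against control (SE 0.10, adjusted p = 9.4e-05) and by 0.32 in rescue against knockdown (SE 0.10, adjusted p = 0.043). The second of these was lost without control replicate 3 (adjusted p = 0.058), without replicates 1 (0.17) or 3 (0.13) of knockdown, without replicates 1 (0.16), 2 (0.087) or 3 (0.091) of rescue, and with library size alone (0.084). POLD1, of polymerase delta, had 41.9, 42.6 and 38.97 CPM in control, 34.5, 32.6 and 40.2 in knockdown cells and 34.1, 31.9 and 29.8 in rescue. Rescue lay below control, and POLD1 fell by 0.37 in that comparison (SE 0.10, adjusted p = 0.0044). POLA1, which primes both strands, was not called, with 0.21 in that comparison (SE 0.16, adjusted p = 0.31).

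PCNA, the sliding clamp, had 42.6, 55.5 and 57.3 CPM in control, 59.4, 74.2 and 65.0 in knockdown cells and 60.4, 66.2 and 71.9 in rescue. Control replicate 1 was the lowest library, and all knockdown and rescue libraries lay above all control libraries. PCNA rose by 0.36 in both comparisons against control (SE 0.10 in each, adjusted p = 0.010 and 0.0084) and gave 0.00 in rescue against knockdown (SE 0.10, adjusted p = 0.999). Without control replicate 1 both calls were lost (adjusted p = 0.073 in knockdown, 0.058 in rescue); the first was also lost without knockdown replicate 2 (0.082) and the second without rescue replicate 3 (0.054).

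**Figure D3:**
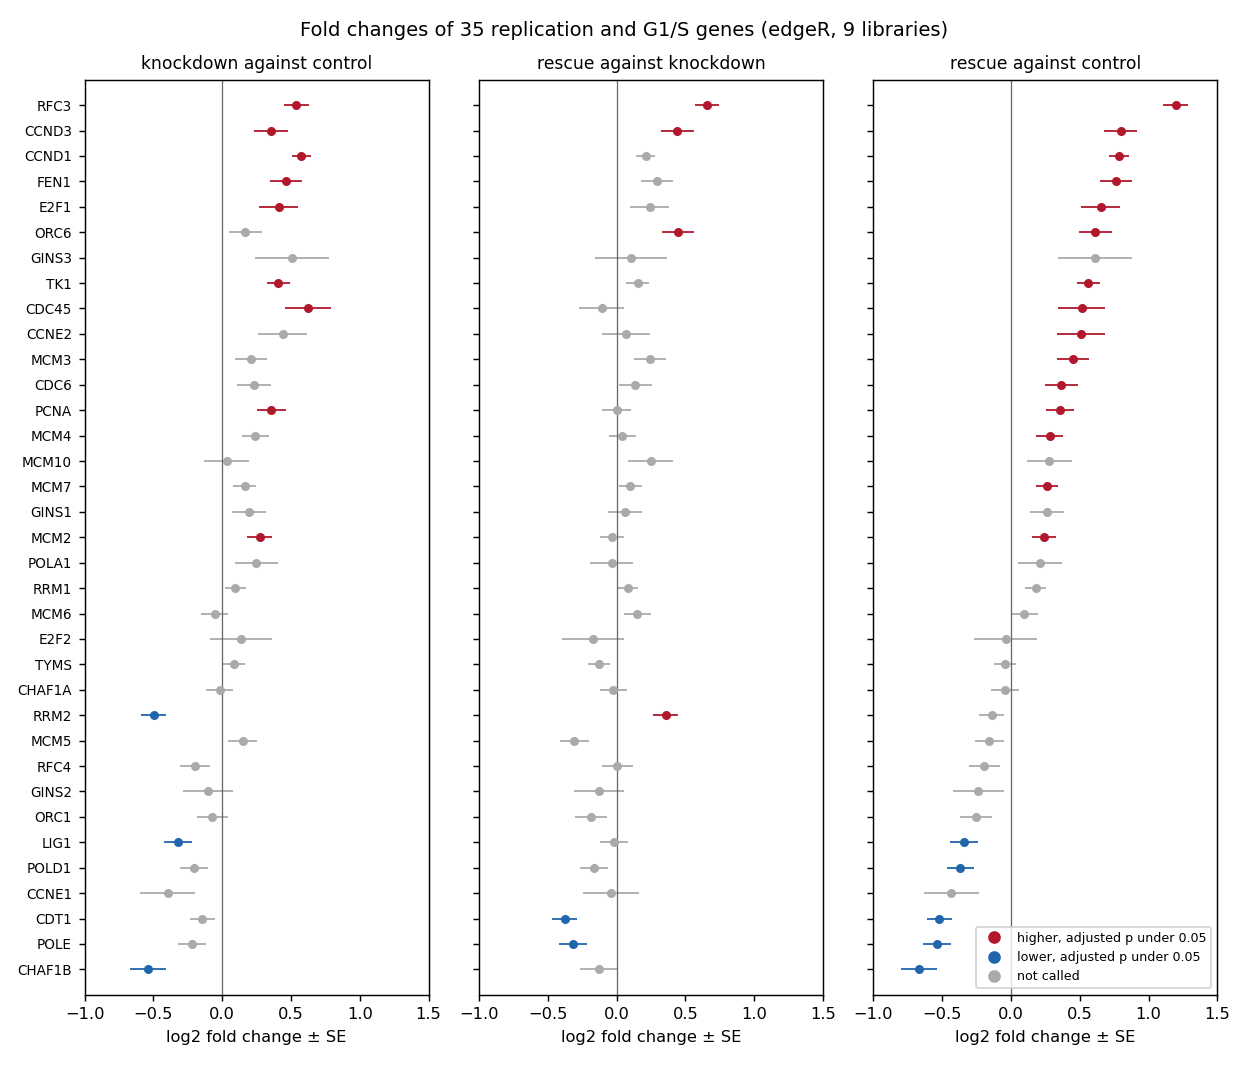
Log2 fold change with its standard error for the 35 genes in the 3 comparisons, ordered by rescue against control; red marks genes called higher, blue genes called lower and grey genes not called. RFC3 stands at the top in the right panel and CHAF1B at the bottom, and RRM2 is blue on the left and red in the middle.

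Nucleotide supply held the only gene of the 35 that was called in opposite directions. RRM2, the regulated subunit of ribonucleotide reductase that peaks in S phase, had 49.3, 56.1 and 58.9 CPM in control, 38.1, 39.7 and 38.5 in knockdown cells and 52.2, 48.3 and 48.7 in rescue. Knockdown lay below both other groups, which overlapped. RRM2 fell by 0.50 in knockdown against control (SE 0.09, adjusted p = 8.6e-05) and rose by 0.36 in rescue against knockdown (SE 0.09, adjusted p = 0.0096); rescue against control gave −0.14 (SE 0.09, adjusted p = 0.23). The 2 calls share the knockdown libraries. The fall held without each of the 9 libraries, and the rise was lost without rescue replicate 1 (adjusted p = 0.062). AC007240.1, on the same strand, shares 1077 exon bases with RRM2 and had 12 counts beside 10169 over the 9 libraries. Reads counted as ambiguous were left out, so the part of RRM2 reads lost in the shared stretch is not known.

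TK1, the S-phase thymidine kinase, rose in both groups against control. It had 71.4, 77.6 and 75.9 CPM in control, 94.3, 95.4 and 109 in knockdown cells and 118, 117 and 96.4 in rescue, with log2 fold changes of 0.41 (SE 0.08, adjusted p = 0.00041) and 0.56 (SE 0.08, adjusted p = 4.4e-06), calls that held without each of the 9 libraries. The constant subunit RRM1 and the thymidylate synthase gene TYMS passed in no comparison, RRM1 with 0.18 in rescue against control (SE 0.08, adjusted p = 0.064) and TYMS with −0.04 (SE 0.08, adjusted p = 0.73). ENOSF1, on the opposite strand, shares 967 exon bases with TYMS and had 17367 counts beside 17286 over the 9 libraries. The strand setting of the counting is not given and reads counted as ambiguous were left out. How reads in the shared stretch were assigned is therefore not known, and the TYMS value is uncertain.

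Of the 2 subunits of chromatin assembly factor 1, which places histones on new DNA, CHAF1B fell and CHAF1A did not pass. CHAF1B had 16.8, 17.03 and 19.1 CPM in control, 13.0, 11.8 and 11.5 in knockdown cells and 10.2, 11.4 and 11.6 in rescue. Control lay above both other groups, and these overlapped with each other. CHAF1B fell by 0.54 in knockdown (SE 0.13, adjusted p = 0.0019) and by 0.67 in rescue (SE 0.13, adjusted p = 0.00016), each against control, and both calls held without each of the 9 libraries. MORC3, which shares 89 exon bases with CHAF1B on the same strand, gave −0.22 (adjusted p = 0.052) and −0.37 (adjusted p = 0.0011). CHAF1A, at 34.6 ± 3.39 CPM in control, gave −0.02 and −0.04 (SE 0.10 in each, adjusted p = 0.92 and 0.78).

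Since these genes work as complexes, the subunits of 9 replication complexes were set side by side, with the subunits outside the 35 genes taken from a list of other replication machinery. In rescue against control, 4 of the 9 complexes held subunits called in opposite directions, and in each of the other comparisons 1 of the 9 did. Of all genes tested, 19% were called higher and 18.8% lower in rescue against control. How often other gene sets of these sizes hold calls in both directions was not tested. In the origin recognition complex, ORC6 and ORC5 rose (0.61 and 0.49) while ORC3 fell by 1.10 (SE 0.12, adjusted p = 1.1e-08), from 37.3 ± 2.96 CPM in control and 32.0 ± 4.75 in knockdown to 17.4 ± 1.56 in rescue. In the clamp loader, RFC3, RFC2 and RFC5 rose (1.195, 0.46 and 0.28) and RFC1, the large subunit, fell by 0.32. In polymerase epsilon POLE fell and the small subunit POLE4 rose by 0.72, and in polymerase delta POLD1 fell and POLD4 rose by 0.70. The MCM helicase, CDC45 with GINS, polymerase alpha with primase, RPA and ribonucleotide reductase held no such opposition in that comparison.

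**Figure D4:**
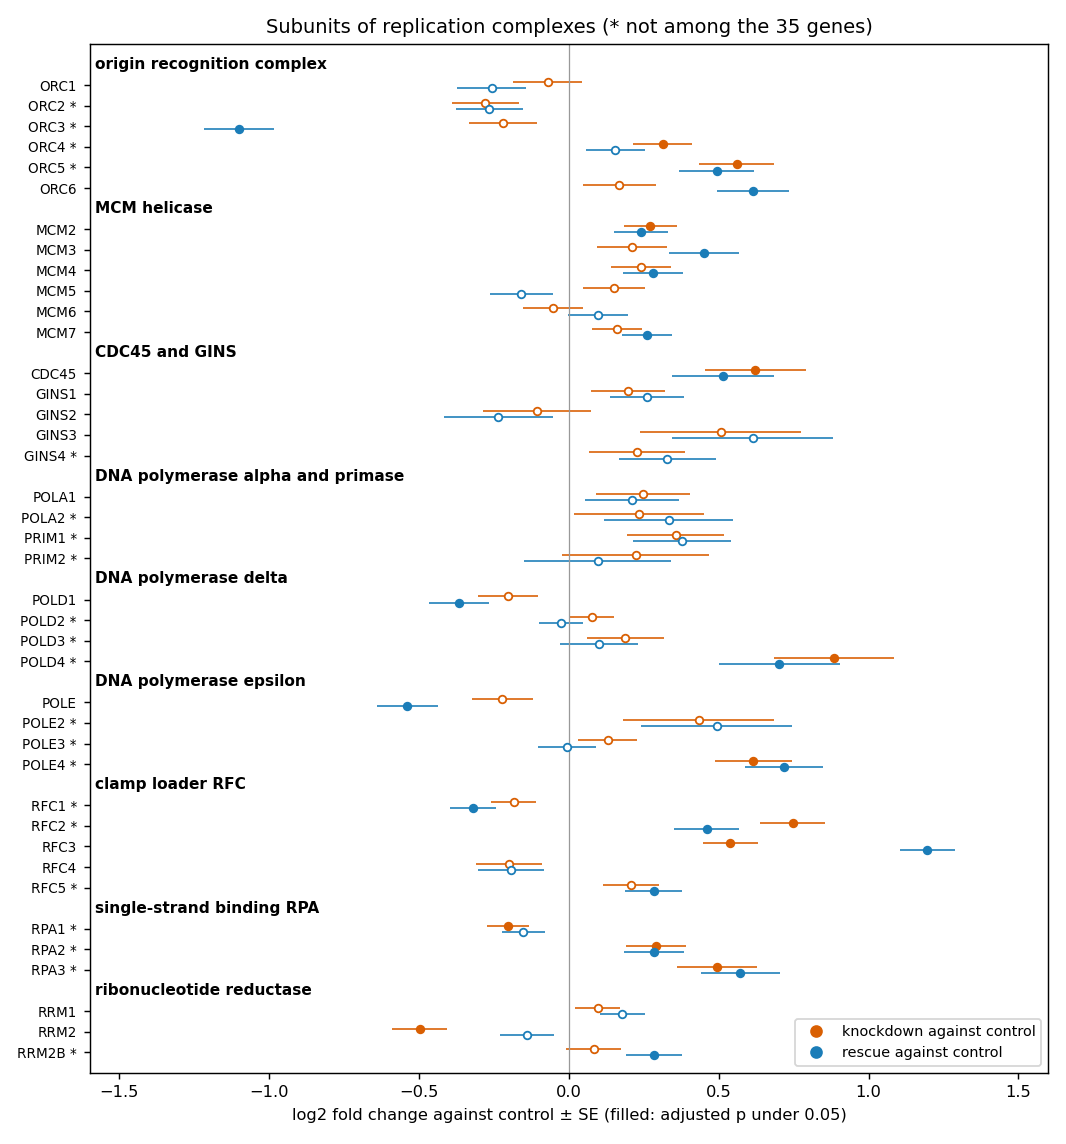
Log2 fold change against control, with its standard error, for the subunits of 9 replication complexes in knockdown (orange) and rescue (blue); filled points have an adjusted p under 0.05, and an asterisk marks subunits outside the 35 genes. ORC3 at −1.10 and RFC3 at 1.195 in rescue are the extremes.

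Counts over the wider pathway are given beside the background shares above. Of 36 tested genes of other replication machinery, 10 rose and 4 fell in knockdown against control (38.9% called beside 32.1% of all genes tested), 1 rose and 1 fell in rescue against knockdown (5.56% beside 10.1%), and 13 rose and 5 fell in rescue against control (50% beside 37.8%), with medians of 0.21, −0.0049 and 0.20. GMNN, which encodes geminin, the inhibitor of CDT1, rose in rescue against control by 1.11 (SE 0.15, adjusted p = 7e-07), from 9.13 ± 2.11 to 19.7 ± 1.72 CPM, and TICRR, an origin firing factor, fell by 0.63 in knockdown (SE 0.11, adjusted p = 5e-05). Among 13 other genes of nucleotide supply, 3 rose and 1 fell in knockdown against control (30.8% called), 1 rose and 3 fell in rescue against knockdown (30.8%), and 7 rose and 1 fell in rescue against control (61.5%). SAMHD1, which degrades deoxynucleotides, fell by 0.73 in knockdown and by 1.05 in rescue (SE 0.10 in each), each against control. Of 8 genes of other S-phase chromatin, the called genes numbered 2 for knockdown against control (25%) and 3 for rescue against control (37.5%). In the latter comparison HELLS, a chromatin remodeller, rose by 0.83 (SE 0.16), and the histone chaperones NASP and ASF1B fell by 0.56 (SE 0.07) and 0.27.

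Inhibitors of the cyclin-dependent kinases, which hold cells at the G1/S boundary, were called in both directions. Of 7 CDK inhibitors, 3 rose in knockdown against control (42.9% called beside 32.1% of all genes tested), 1 rose and 1 fell in rescue against knockdown (28.6% beside 10.1%), and 4 rose and 2 fell in rescue against control (85.7% beside 37.8%). CDKN1A, which encodes p21, was at 355 ± 30.4 CPM in control, 452 ± 34.1 in knockdown cells and 637 ± 46.6 in rescue, and was called in all 3 comparisons (log2 fold changes 0.35, 0.50 and 0.84, SE 0.08 in each). CDKN2C and CDKN2D, INK4 inhibitors of the cyclin D kinases, rose by 0.71 and 0.51 in knockdown cells and by 0.92 and 0.75 in rescue (SE 0.11 in each), and CDKN1C rose in rescue by 0.46 (SE 0.10). CDKN2A, whose locus encodes both an INK4 inhibitor and ARF, fell by 1.00 in rescue against knockdown (SE 0.12, adjusted p = 8.9e-07), and CDKN1B, p27, fell by 0.21 in rescue against control (adjusted p = 0.028). CDKN2B was near 1 CPM and not called.

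Of 18 tested other G1/S regulators, 4 rose and 1 fell in knockdown against control (27.8% called beside 32.1% of all genes tested), 2 rose in rescue against knockdown (11.1% beside 10.1%), and 5 rose and 1 fell in rescue against control (33.3% beside 37.8%), so that these shares lay near the background. RB1, the retinoblastoma gene, rose by 0.50 in knockdown (SE 0.10, adjusted p = 0.00029) and 0.55 in rescue, and its relative RBL2, the pocket protein of resting cells, fell by 0.48 in knockdown (SE 0.07, adjusted p = 2.8e-06). RBL2 rose by 0.25 in rescue against knockdown (SE 0.07, adjusted p = 0.020). It was still lower in rescue than in control (log2 fold change −0.24, SE 0.07, adjusted p = 0.0078). FBXW7, part of the ligase that degrades cyclin E, rose in rescue against knockdown by 0.67 (SE 0.10, adjusted p = 5.5e-05).

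Genes of G2/M and mitosis are set beside them. Of 30 such genes, 6 rose and 1 fell in knockdown against control (23.3% called beside 32.1% of all genes tested, median 0.06), 8 rose in rescue against knockdown (26.7% beside 10.1%, median 0.19), and 13 rose in rescue against control (43.3% beside 37.8%, median 0.17). CCNB2, cyclin B2, rose by 0.71 in knockdown, and MAD2L1, of the spindle checkpoint, by 0.58 in rescue against knockdown. MKI67, the proliferation marker, passed in no comparison, with 172 ± 19.9 CPM in control, 141 ± 25.4 in knockdown cells and 169 ± 14.0 in rescue; it was chosen after its values were seen. Replication-dependent histones, as a class made mainly in S phase, had larger fold changes. Whether the mRNA of the listed histone genes came from S phase in these cells was not tested. Of 10 tested, 9 rose in knockdown against control (90% called beside 32.1% of all genes tested). Levels of H2BC21 averaged 41.6 ± 2.53, 205 ± 27.3 and 288 ± 19.0 CPM for the control, knockdown and rescue groups. The library kit is not given, so how completely histone mRNA was captured is not known. The median log2 fold change of the histones in knockdown against control was 2.09, beside 0.16 for the 35 replication genes. The difference between these lists was not tested.

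**Figure D5:**
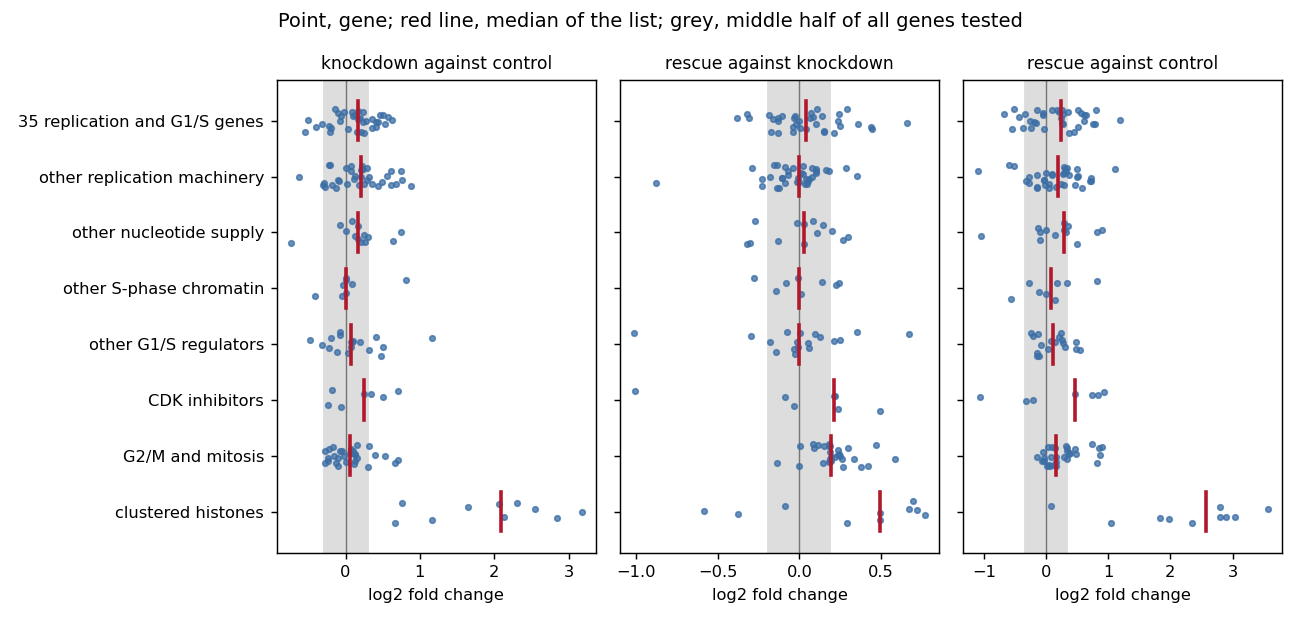
Log2 fold changes by gene list in the 3 comparisons; each point is a gene, the red line the median of its list and the grey band the range between the lower and upper quartiles of all genes tested. Medians of the 35 replication genes, 0.16, 0.04 and 0.24, lie within the band, and those of the clustered histones, 2.09, 0.49 and 2.57, lie outside it.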

How the data were processed

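RNA from 9 LNCaP libraries in 3 groups of 3 was analysed. The authors deposited 1 table of unnormalized gene counts per library. HTSeq, HISAT2, cutadapt and FastQC are named with the hg19 build, per the submitters' processing notes; versions, strand setting and library kit were not given in the sources used here. Summary rows (no feature, ambiguous at 2.26% to 2.67%, not unique at 5.26% to 7.62%) were left out. Symbols came from the gene name table (56373 of 60880 rows) or GENCODE v29 (444). The low-count filter was edgeR's filterByExpr (minimum count 10), which left 18389 genes; counts were scaled by TMM and fitted in R 4.3.3 with edgeR 4.0.16 (robust quasi-likelihood, 1 mean per group, 6 residual degrees of freedom, two-sided tests, Benjamini-Hochberg adjustment over all genes). SE was taken as the absolute log2 fold change divided by the square root of the F statistic. The scripts were tested on simulated data.

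CPM uses TMM-scaled depth. RPKM divides it by the union of exons in the GENCODE v29 basic set, an annotation of another build used for lengths and overlaps only. No member shared its name with a pseudogene of more than 4 counts. Alternatives used limma 3.58.1, DESeq2 1.42.0, other scalings, filters and fits, and each library left out. Every member may be named; values per library are given for members called without overlap and for at least 1 member per role, and of other lists mainly the members with the smallest adjusted p. Members and lists were chosen with earlier results of these data known. No replicate pair within a group differed by as little as sampling noise (chi-square per degree of freedom 4.88 to 19.8).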

Additional observations from a re-analysis of the deposited data

How the results depend on the processing

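Under each alternative, the median log2 fold change of the 35 genes moved by less than the largest group SD of the per-library medians. That largest SD was the one of the knockdown group. It was also used for rescue against control, which does not include knockdown, so it is a loose limit there. With a library left out the median ranged from 0.12 to 0.21 in knockdown against control and from 0.16 to 0.26 in rescue against control. In rescue against knockdown it ranged from -0.02 to 0.07 (below 0 only without rescue replicate 1). With a library left out, 6 to 9 genes rose and 2 to 4 fell in knockdown against control, 2 to 5 rose and 1 to 3 fell in rescue against knockdown, and 9 to 16 rose and 5 to 6 fell in rescue against control; the 9 came without rescue replicate 1, beside 15 with all libraries. Of the calls, 7 of 12, 2 of 6 and 12 of 20 in the same order held without each library. When a change above 1.2-fold was required, rescue against knockdown had 1 higher and 0 lower, rescue against control 7 higher and 3 lower, and knockdown against control 3 higher and 2 lower. With library size alone 1 gene fell in rescue against knockdown. All genes called in rescue against knockdown numbered 1196 without rescue replicate 1, beside 1854, and 2971, 495 and 3884 with the 1.2-fold requirement, beside 5899, 1854 and 6946. Replicate numbers are shared by the titles, but deviations of same-numbered libraries from their group means correlated at only -0.037 to 0.077, and 5 of 9 libraries correlated best with their own number, so the numbers were not taken as pairs. With the replicate block, the genes higher and lower numbered 10 and 3 for knockdown against control, 5 and 3 for rescue against knockdown, and 16 and 5 for rescue against control. No called gene changed sign. Uncalled values near 0 did (adjusted p 0.75 to 0.999). With other settings these were PCNA in rescue against knockdown, at -0.0022 with upper-quartile scaling and -0.0003 with the replicate block, and with library size alone MCM10 in knockdown against control at -0.0049 and LIG1 in rescue against knockdown at 0.0015. With a library left out, the ranges were -0.0921 to 0.051 for CHAF1A, -0.008 to 0.2559 for E2F2, -0.2614 to 0.0046 for GINS2, -0.0509 to 0.1361 for MCM10 and -0.1048 to 0.0067 for MCM6 in knockdown against control. They were -0.1137 to 0.0292 for CHAF1A, -0.125 to 0.0595 for E2F2 and -0.1083 to 0.0114 for TYMS in rescue against control. They were -0.0914 to 0.0201 for CCNE1, -0.051 to 0.1895 for CCNE2, -0.1957 to 0.0108 for CDC45, -0.0634 to 0.0206 for CHAF1A, -0.1019 to 0.2162 for GINS1, -0.2862 to 0.0261 for GINS2, -0.0499 to 0.2179 for GINS3, -0.0824 to 0.0782 for LIG1, -0.1055 to 0.0373 for MCM2, -0.0419 to 0.1211 for MCM4, -0.0737 to 0.0945 for PCNA, -0.1191 to 0.0558 for POLA1 and -0.0537 to 0.1042 for RFC4 in rescue against knockdown. The cause of these changes was not tested. Depth limits the low genes: E2F2 had 81 to 114 counts per library and GINS3 53 to 170.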

Other observations

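The 35 genes varied little together within groups. Over the 595 pairs of these genes, the median Pearson correlation of their deviations from group means across the 9 libraries was 0.11, and 59.7% of pairs were above 0; the libraries and their scaling are shared by all pairs, so this is a description. The level of the whole set still differed between libraries of 1 group: in rescue replicate 1, 27 of the 35 genes lay above the mean of the rescue group, against 21 in rescue replicate 2 and 10 in rescue replicate 3. In knockdown the counts were 18, 10 and 23, and in control 13, 19 and 20. The summed level of the 35 genes was 1414 to 1455 CPM in control, 1608 to 1652 in knockdown cells and 1662 to 1823 in rescue. Without CCND1 the sums were 1136 to 1200, 1212 to 1273 and 1213 to 1348 CPM, so that knockdown and rescue overlapped and control lay just below both.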
